A study of Mus musculus with 12 samples.

Results

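The Slc2 genes encode the GLUT family of membrane transporters, and 9 of them, Slc2a1, Slc2a3, Slc2a4, Slc2a6, Slc2a8, Slc2a9, Slc2a10, Slc2a12 and Slc2a13, were followed here through the hippocampus of adult mice. They were chosen by family and not by their values, with the exception that Slc2a9 is among the genes the study itself named from these same samples, so its result is not independent evidence. The 9 genes are 9 of 35580 genes in the deposited table, and they hold 54 of its 115270 transcripts. RNA was sequenced from the hippocampus of C57BL/6 male mice at postnatal day 70, with 3 mice in each of 4 groups. Control mice came from dams that drank water only and stayed with the dam. Ethanol mice came from dams with free access to 10% ethanol in water through gestation and into the early postnatal period. Stress mice came from dams on water and were taken from the dam and isolated for 3 hours a day from postnatal day 2 to 14. Ethanol + stress mice had both exposures. Drinking was voluntary, so the dose of each litter was not set by the design. Separated and unseparated pups were drawn from the same litters, and the labels do not tie a mouse to its litter, so the p-values below measure only the spread between these mice.

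Most members of this family move sugars down their gradient across membranes, and the brain depends on them because neurons hold little stored fuel. Slc2a1 (GLUT1) carries glucose through the endothelium of the blood-brain barrier and into astrocytes, while Slc2a3 (GLUT3) is the main glucose transporter of neurons. Slc2a4 (GLUT4) is the insulin-responsive transporter best known from muscle and fat. Slc2a9 (GLUT9) is best known as a urate transporter, and Slc2a13 (HMIT) carries myo-inositol together with protons.

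The values are in TPM, read counts divided by transcript length and by the library's total, here scaled further between libraries, and they were summed over the transcripts of a gene to give its level. Across the 12 libraries the table summed to between 889222 and 1173650, and its steps correspond to an estimated 12030000 to 14870000 read pairs per library. These counts were estimated from the values, so they carry the error of that estimate and of read assignment beside counting error. Differences are given as log2 of (level + 0.5), which understates the change of low genes, and a gene or transcript was called at an unadjusted p under 0.01 in limma. Levels come from bulk tissue, in which fewer cells of a type and less RNA per cell cannot be told apart. All 7 markers of hippocampal neurons were detected in every library. Of these, 1 was called, C1ql2, lower in ethanol-exposed than in unexposed mice (-0.30, limma adjusted p = 0.760), beside 1.12% of all genes. Of 5 microglia markers, 1 was called, Tmem119, in the interaction of ethanol and stress (0.54, limma adjusted p = 0.999975), beside 0.461%. Blood and choroid plexus RNA differed between libraries, and those values are given beside the members they move with.

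Slc2a3 had the highest level of the family, with 48.8, 66.6 and 88.9 scaled TPM as its lowest, median and highest library. Slc2a13 followed with a median of 35.0 (22.5 to 41.8), and Slc2a1 with a median of 33.4 (28.5 to 39.7). These 3 genes made up 38.5%, 19.4% and 19.0% of the family's level summed over the 12 libraries. Slc2a6, a transporter of intracellular membranes, had a median of 18.3 (15.2 to 23.2), and Slc2a8, another intracellular hexose transporter, a median of 12.2 (8.78 to 15.3). The remaining 4 genes were low, with medians of 4.45 for Slc2a12, 3.40 for Slc2a9, 0.876 for Slc2a10 and 0.689 for Slc2a4. Neighbours in this order overlapped over the 12 libraries at every step except from Slc2a3 to Slc2a13 and from Slc2a1 to Slc2a6. The range between libraries was 1.39-fold to 1.86-fold for the 5 genes with the highest medians and 3.06-fold to 5.60-fold for the 4 with the lowest. The 3 Slc2 genes outside these 9 were Slc2a5, a fructose transporter of microglia in brain, at 3.45 to 5.55, Slc2a2 at 0.0991 to 0.425 and Slc2a7 at 0 to 0.297.

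**Figure D1:**
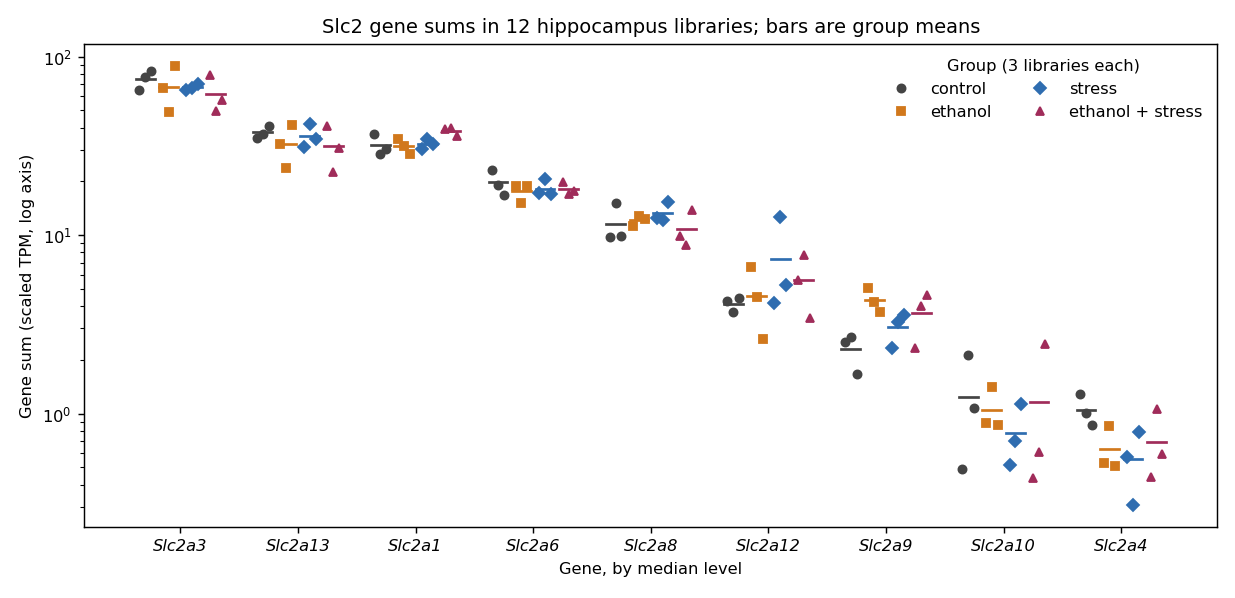
Level of each of the 9 Slc2 genes in scaled TPM on a log axis, with 1 point per mouse and the groups side by side. Slc2a3 is highest with a median of 66.6 and Slc2a4 lowest with a median of 0.689, and the ethanol points of Slc2a9 (3.69 to 5.09) sit clear of its control points (1.67 to 2.70), as do the lower ethanol and stress points of Slc2a4.

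The first question was which members differed from control after each exposure. Of the 9 gene sums, 1 was called in ethanol mice against control, Slc2a9, beside a background of 0.678% of 18434 genes called in that comparison. In stress mice 0 of 9 were called in limma, with 1 at an unadjusted p under 0.05, beside a background of 0.51%. In ethanol + stress mice 0 of 9 were called and 2 had a p under 0.05, beside 0.971%. The sign was positive for 3 of 9 genes in ethanol mice, 4 of 9 in stress mice and 3 of 9 in ethanol + stress mice. The median log2 difference of the 9 genes was -0.06, -0.08 and -0.11 in these comparisons, against 0.02, 0.00 and 0.02 over all genes tested. All 3 comparisons share the same control mice.

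The design also crosses the exposures. The interaction of ethanol and stress called 0 of 9 genes, with 0 at a p under 0.05, beside a background of 0.461%. Pooled over separation, ethanol-exposed against unexposed mice (6 against 6) called 0 of 9, with 1 at a p under 0.05, beside 1.12%. Pooled over ethanol, separated against unseparated mice called 0 of 9, with 0 at a p under 0.05, beside 0.586%. Scaling every library to a common total moved the median of all genes in ethanol + stress mice from 0.02 to -0.09, so differences of that size are not read as changes.

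**Figure D2:**
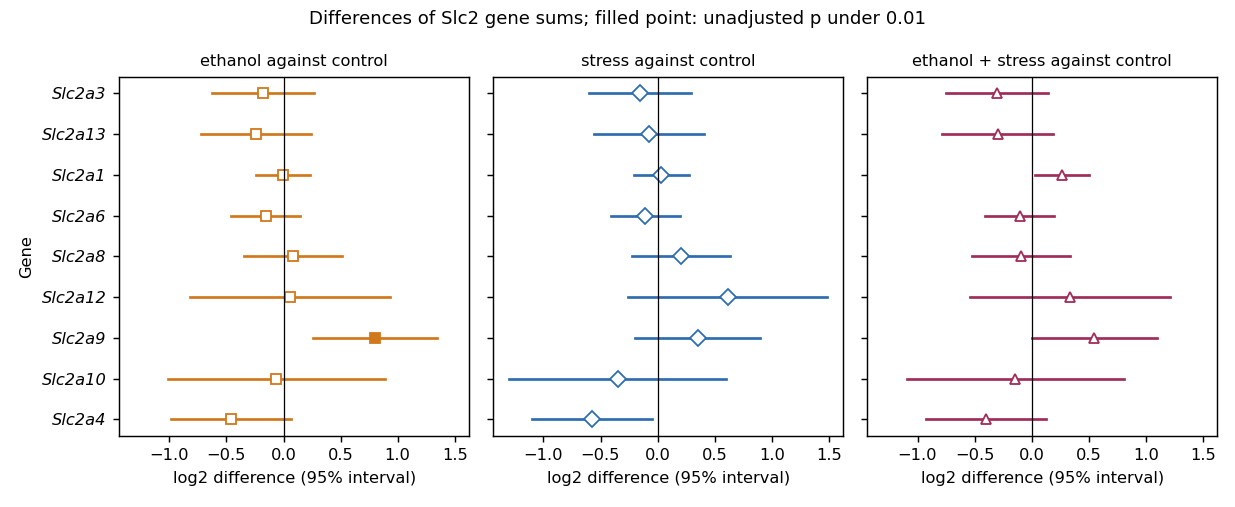
Log2 difference of each gene sum from control in ethanol, stress and ethanol + stress mice, with bars for the 95% confidence interval from limma (3 mice per group) and a filled symbol where the difference was called. The interval of Slc2a9 in ethanol mice runs from 0.25 to 1.35, and the only others that do not cross 0 are Slc2a9 and Slc2a1 in ethanol + stress mice and Slc2a4 in stress mice.

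Slc2a1 (chr4:119108711-119137983, plus strand, GRCm38) supplies glucose at the blood-brain barrier. Its level was 36.7, 28.7 and 30.2 scaled TPM in control mice, 34.8, 31.8 and 28.5 in ethanol mice, 30.6, 34.4 and 32.4 in stress mice, and 39.2, 39.7 and 36.0 in ethanol + stress mice. The ethanol + stress libraries held 3 of the 4 highest values, with control replicate 1 between them. Against control (31.9 ± 4.25, SD, n = 3) the ethanol + stress mean was 38.3 ± 2.02, a log2 difference of 0.27 (SE 0.11, 95% confidence interval 0.03 to 0.51), which was not called at an unadjusted p between 0.01 and 0.05 (limma adjusted p = 0.791). Without control replicate 1 the difference was 0.37 and was called (limma adjusted p = 0.828), so that 1 library decides the call. Without control replicate 2 it was 0.20, and settings other than leaving out 1 library gave 0.13 to 0.27, none of them called. Summed markers of endothelial cells lay between 168 and 207 over the 12 libraries, with 186, 205 and 207 in ethanol + stress mice, and 0 of the 9 markers were called. Their part in the Slc2a1 values was not tested.

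Most Slc2a1 RNA came from 2 transcripts. ENSMUST00000030398.9, with 10 exons, encodes the full protein and made up 61.7% of the gene. ENSMUST00000174372.2, with 9 exons and annotated as a target of nonsense-mediated decay, made up 35.6%. It lacks exon 5 of the coding transcript, 163 bases at chr4:119133097-119133259 on the plus strand of GRCm38, a length that is not a multiple of 3. The join out of exon 4 tells these transcripts apart and is printed here for both, with the last 24 bases of the upstream exon in lower case and the first 24 of the downstream exon in capitals, 5′ to 3′, from the GENCODE M21 transcripts on GRCm38.
Slc2a1 coding transcript, exon 4 to 5: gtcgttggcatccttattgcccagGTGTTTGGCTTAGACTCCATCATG
Slc2a1 decay transcript, exon 4 to 5: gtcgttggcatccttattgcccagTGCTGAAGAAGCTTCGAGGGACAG
The joins share their upstream part and differ downstream, and no other transcript in the annotation used here holds that of the decay transcript.

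The decay transcript was abundant in every library. Its share of Slc2a1 was 33.9%, 30.5% and 39.8% in control mice, 38.4%, 36.2% and 30.6% in ethanol mice, 31.6%, 39.1% and 40.2% in stress mice, and 32.9%, 28.7% and 45.1% in ethanol + stress mice. The 4 groups overlapped throughout, and their means lay between 34.7% and 36.9%. An estimated 133 to 262 read pairs per library stood behind it. The coding transcript was at 23.8, 19.4 and 17.7 scaled TPM in control mice and at 25.3, 26.3 and 19.7 in ethanol + stress mice (log2 difference 0.22, limma adjusted p = 0.889). The decay transcript was at 12.4, 8.75 and 12.1 in control mice and 12.9, 11.4 and 16.2 in ethanol + stress mice (0.28, limma adjusted p = 0.890). Neither transcript was called in any of the 6 comparisons.

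**Figure D3:**
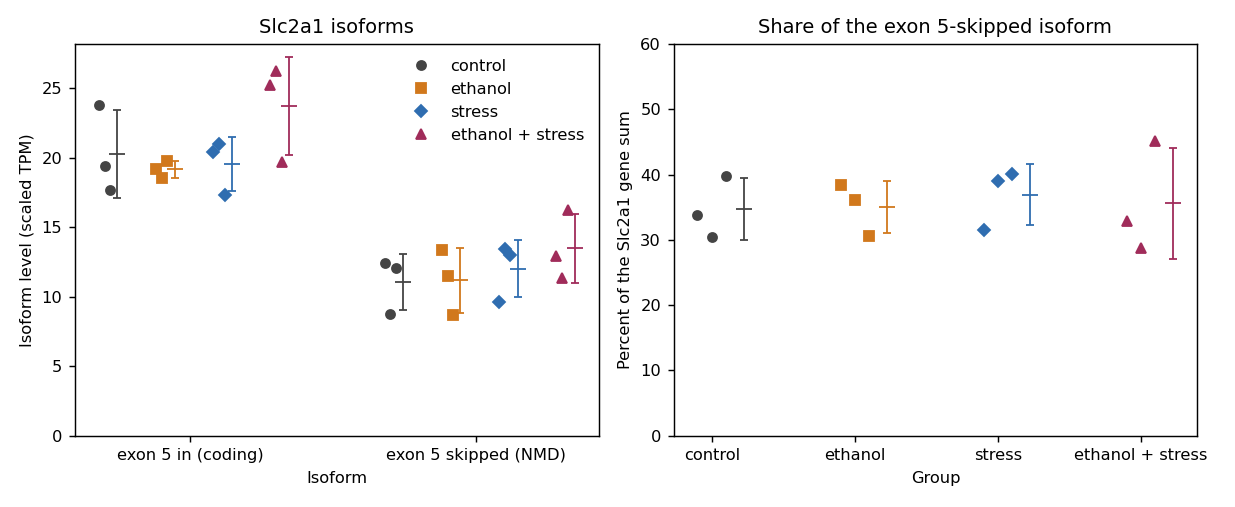
Left, scaled TPM of the coding transcript, which holds exon 5, and of the decay transcript (NMD), which skips it, in each mouse by group, with mean and SD; right, the decay transcript's percent of the gene. The share lies between 28.7% and 45.1%, and the groups overlap.

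Slc2a3 (chr6:122727809-122801640, minus strand) is the neuronal glucose transporter gene. Its level was 65.2, 77.4 and 83.2 scaled TPM in control mice, 66.7, 48.8 and 88.9 in ethanol mice, 65.4, 66.5 and 70.0 in stress mice, and 78.6, 49.4 and 57.6 in ethanol + stress mice. The lowest 3 values were ethanol replicate 2 and ethanol + stress replicates 2 and 3, and every group overlapped control. The log2 differences from control were -0.18, -0.15 and -0.30 in ethanol, stress and ethanol + stress mice, and none was called. Without ethanol replicate 2 the ethanol difference was 0.04.

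The myo-inositol symporter gene Slc2a13 (chr15:91267696-91573261, minus strand) ranked low in the same 3 libraries. It stood at 35.3, 37.0 and 41.0 scaled TPM in control mice, 32.5, 23.9 and 41.3 in ethanol mice, 31.4, 41.8 and 34.7 in stress mice, and 41.1, 22.5 and 30.7 in ethanol + stress mice. Its differences from control were -0.24, -0.08 and -0.30, with overlap in every group and no call. The ethanol difference was -0.04 without ethanol replicate 2 and -0.43 without ethanol replicate 3. That of ethanol + stress mice was -0.08 without ethanol + stress replicate 2 and -0.51 without ethanol + stress replicate 1. Oligodendrocyte markers summed to between 2638 and 5908 over the libraries, and the 3 libraries low in Slc2a3 and Slc2a13 were among the 4 highest, with 5085, 5908 and 5868. Neuron markers summed to between 2842 and 3263, with the 2 lowest sums, 2842 and 2845, in ethanol + stress replicates 2 and 3. Ethanol replicate 2, the lowest in Slc2a3, had a neuron sum of 3046, above the 3017 of control replicate 3. Their part in the low values was not tested.

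Within Slc2a3, ENSMUST00000032476.10 made up 79.2% of the gene and was called in no comparison. ENSMUST00000165884.7, a short transcript of 601 bases, was at 9.06, 14.3 and 13.5 scaled TPM in control mice and at 8.69, 5.24 and 8.44 in stress mice. All 3 stress values lay below all 3 control values (log2 difference -0.69, SE 0.26), and the difference was not called, at an unadjusted p between 0.01 and 0.05. A decay transcript, ENSMUST00000166135.7, is named after its values were seen, since it fell below the filter and was not tested. The table gave it as 0 in every control mouse, as 0, 5.23 and 1.35 in ethanol mice, as 0 or within rounding of it in stress mice, and as 1.83, 2.20 and 2.51 in ethanol + stress mice. It therefore stood above 0.1 in 5 of 6 ethanol-exposed mice and in 0 of 6 unexposed ones, on an estimated 14.0 to 44.6 read pairs where it was detected.

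Slc2a4 (chr11:69942539-69948188, minus strand), the insulin-responsive transporter gene, was the lowest member. Its level was 1.29, 1.002 and 0.864 scaled TPM in control mice, 0.530, 0.853 and 0.505 in ethanol mice, 0.570, 0.308 and 0.783 in stress mice, and 0.441, 1.06 and 0.594 in ethanol + stress mice. All ethanol and stress values lay below all control values, and the ethanol + stress values overlapped them. The log2 difference was -0.57 in stress mice (SE 0.24, 95% confidence interval -1.10 to -0.05) and -0.46 in ethanol mice, and neither was called, the first at an unadjusted p between 0.01 and 0.05 in limma.

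These Slc2a4 sums rest on few reads. An estimated 4.97 to 16.8 read pairs per library stood behind the gene, and ENSMUST00000142500.7, of 408 bases, made up 21.6% of the level on less than 1 read pair in every library. That transcript was listed at 0.562, 0.508 and 0.244 in control mice and at 0 in all ethanol and stress mice. In a comparison chosen after seeing the data, the levels were taken as estimated read pairs per 1000000, which does not weight a short transcript up. The control mice were then at 1.12, 0.824 and 0.769, the ethanol mice at 0.770, 1.06 and 0.735, and the stress mice at 0.829, 0.404 and 1.13. On that scale the groups overlapped, and the differences were -0.05 in ethanol mice and -0.16 in stress mice, neither with an unadjusted p under 0.05 in limma.

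Among the intracellular transporters, Slc2a6 (chr2:27021363-27027998, minus strand) was at 23.2, 19.2 and 16.9 scaled TPM in control mice, 18.9, 15.2 and 18.8 in ethanol mice, 17.2, 20.5 and 17.0 in stress mice, and 19.9, 17.0 and 17.8 in ethanol + stress mice. No group stood apart, and the gene sum was called in no comparison. Its main transcript, ENSMUST00000045702.5, made up 88.7% of the gene. A minor coding transcript, ENSMUST00000102890.10, lacks exon 8 of the main one, 162 bases at chr2:27023088-27023249 on the minus strand of GRCm38, a multiple of 3. It was the only member transcript called in the interaction, and so the joins around the missing exon are printed, with capitals from the first base of the downstream exon.
Slc2a6 main transcript, exon 7 to 8: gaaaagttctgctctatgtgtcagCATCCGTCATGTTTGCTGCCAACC
Slc2a6 main transcript, exon 8 to 9: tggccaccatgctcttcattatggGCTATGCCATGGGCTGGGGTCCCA
Slc2a6 minor transcript, exon 7 to 8: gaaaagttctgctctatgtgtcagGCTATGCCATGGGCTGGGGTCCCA
The join of the minor transcript is found in no other transcript of the annotation.

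The minor Slc2a6 transcript was at 1.67, 0.762 and 0.566 scaled TPM in control mice, 0, 0 and 0.408 in ethanol mice, 0.486, 0.759 and 0 in stress mice, and 2.29, 1.13 and 0.493 in ethanol + stress mice. Ethanol values lay below control values, while ethanol + stress values spanned them. The interaction was 2.18 on the log2 scale (SE 0.69, 95% confidence interval 0.67 to 3.69) and was called, but did not hold up over all transcripts (limma adjusted p = 0.99997). With single libraries left out the interaction stayed between 1.80 and 2.55, and it fell short of a call without control replicate 1 or 2, ethanol replicate 1 or 2, stress replicate 1 or 3, or ethanol + stress replicate 1 or 2. Ethanol alone gave -1.23 (limma adjusted p = 0.870), which was not called. The estimated read pairs ranged from 0 in 3 libraries to 34.1, and with libraries at 0 the pseudocount sets part of the fitted size.

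Slc2a8 (chr2:32972990-32982083, minus strand) was at 9.78, 15.2 and 9.88 scaled TPM in control mice, 11.2, 12.7 and 12.3 in ethanol mice, 12.5, 12.1 and 15.3 in stress mice, and 9.85, 8.78 and 13.9 in ethanol + stress mice. The groups overlapped and no comparison was called. Its main transcript, ENSMUST00000028129.12, varied less, from 7.95 to 11.8 over the 12 libraries, and made up 81.4% of the gene. It was at 9.02, 9.77 and 9.30 in control mice and 10.6, 11.8 and 10.7 in stress mice, so that all stress values exceeded all control values, by 0.23 on the log2 scale (95% confidence interval -0.04 to 0.49), which was not called.

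Slc2a10 (chr2:165503787-165519917, plus strand), a transporter gene known from a disorder of arterial tortuosity in humans, was at 0.487, 2.14 and 1.07 scaled TPM in control mice, 0.890, 1.40 and 0.862 in ethanol mice, 0.512, 0.698 and 1.13 in stress mice, and 0.437, 0.606 and 2.44 in ethanol + stress mice. The highest 2 values, in control replicate 2 and ethanol + stress replicate 3, came with the highest values of a 378-base transcript, ENSMUST00000148463.1, at 1.17 and 1.54. That transcript reached 63.1% of the gene in 1 library. The gene rested on 12.9 to 31.3 estimated read pairs per library, and no comparison was called.

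Slc2a12 (GLUT12, chr10:22645011-22704285, plus strand) is a further sugar transporter gene with low levels in this tissue. It was at 4.25, 3.72 and 4.43 scaled TPM in control mice, 6.65, 4.48 and 2.62 in ethanol mice, 4.16, 12.7 and 5.25 in stress mice, and 5.64, 7.76 and 3.42 in ethanol + stress mice. Stress replicate 2 stood far above the other 11 libraries. The difference in stress mice was 0.61 on the log2 scale (95% confidence interval -0.26 to 1.49) and was not called, and without stress replicate 2 it was 0.16.

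Slc2a12 moved with markers of the choroid plexus, the tissue that secretes cerebrospinal fluid. The 6 markers, none at 0 in any library, summed to 1299, 619 and 1843 in control mice, 3530, 84.8 and 41.0 in ethanol mice, 1849, 5275 and 1659 in stress mice, and 2313, 7240 and 208 in ethanol + stress mice. The 4 libraries with the highest sums, ethanol replicate 1, stress replicate 2 and ethanol + stress replicates 1 and 2, were also the 4 with the highest Slc2a12. The 2 lowest Slc2a12 values, in ethanol replicate 3 and ethanol + stress replicate 3, came from libraries with sums of 41.0 and 208. Ethanol replicate 2, with the second lowest sum, 84.8, had Slc2a12 at 4.48, above all 3 control mice, of which 1.49 came from ENSMUST00000159174.1 on an estimated 2.24 read pairs. The main transcript of Slc2a12, ENSMUST00000042261.4, was at 2.99 there, below all 3 control mice (3.72 to 4.43). As read pairs per 1000000 the gene was at 7.57 in that library against 9.16 to 10.9 in control mice. In stress replicate 2, ENSMUST00000159174.1 held 1.83 of the level on an estimated 2.75 read pairs, with the main transcript at 10.85. None of the 6 markers was called in any comparison, and their part in the Slc2a12 values was not tested.

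**Figure D4:**
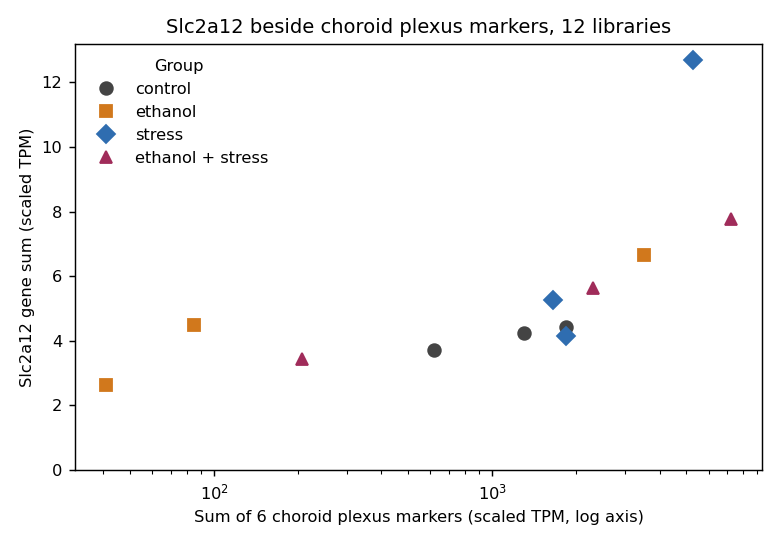
Slc2a12 in scaled TPM (vertical axis) against the summed choroid plexus markers in scaled TPM on a log axis, with 1 point per mouse coloured by group. Stress replicate 2, at 12.7, has a marker sum of 5275, and the lowest value, 2.62, lies in the library with the lowest sum, 41.0.

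Slc2a9 (chr5:38349273-38503143, minus strand), the urate transporter gene, gave the only call among the gene sums. Its level was 2.51, 2.70 and 1.67 scaled TPM in control mice, 5.09, 4.21 and 3.69 in ethanol mice, 2.34, 3.24 and 3.56 in stress mice, and 2.32, 3.99 and 4.65 in ethanol + stress mice. Every ethanol value exceeded every control value, while 1 value each of the stress and ethanol + stress groups fell within the control range. Against control (2.29 ± 0.550, SD, n = 3) the ethanol mean was 4.33 ± 0.709, a log2 difference of 0.80 (SE 0.25, 95% confidence interval 0.25 to 1.35). It was called at an unadjusted p under 0.01 and did not hold up when adjusted over all 18434 genes (limma adjusted p = 0.997). With single libraries left out the difference stayed between 0.63 and 0.91, and it fell short of a call without control replicate 1 (0.87) or 3 (0.63), ethanol replicate 1 (0.69) or 2 (0.81), or replicate 2 of the stress or ethanol + stress mice (0.80 each).

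In ethanol + stress mice the Slc2a9 difference from control was 0.55 (95% confidence interval 0.00 to 1.10, limma adjusted p = 0.791) and in stress mice 0.35 (95% confidence interval -0.20 to 0.90), neither of them called. The interaction was -0.60 (95% confidence interval -1.38 to 0.17), so a difference between the ethanol effect in separated and in unseparated mice was not shown. Pooled, the 6 exposed mice were at 3.99 ± 0.955 and the 6 unexposed at 2.67 ± 0.673 (SD), a log2 difference of 0.50 (95% confidence interval 0.11 to 0.89, limma adjusted p = 0.760). An exact two-sided permutation test of these 6 against 6 values gave p = 0.0303, or 0.545 after Benjamini-Hochberg adjustment over the 18 tests of 9 genes and 2 pooled comparisons. Exposed mice ranged from 2.32 to 5.09 and unexposed mice from 1.67 to 3.56, so the pooled groups overlapped.

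The Slc2a9 call depended on how the level was counted. An estimated 24.8, 27.8 and 25.8 read pairs in control mice stood against 42.7, 38.8 and 35.7 in ethanol mice, 30.8, 31.8 and 39.7 in stress mice, and 32.8, 35.8 and 39.7 in ethanol + stress mice. The 3 control libraries held fewer read pairs than each of the 9 others. Per 1000000 read pairs, a scale chosen after seeing the data, control mice were at 1.87, 2.31 and 2.00, ethanol mice at 3.01, 3.18 and 2.40, stress mice at 2.14, 2.59 and 2.67, and ethanol + stress mice at 2.29, 2.53 and 3.08. With depth taken into account, stress replicate 1 and ethanol + stress replicate 1 fell below control replicate 2. The ethanol difference on that scale was 0.39 (limma adjusted p = 0.995) and was not called. The ethanol and control mice still did not overlap.

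Of the 12 Slc2a9 transcripts, 4 were listed at 0 in every library and 4 passed the filter. The most abundant was ENSMUST00000140462.1, a processed transcript of 776 bases with no annotated protein, which made up 44.8% of the gene. It was at 1.26, 0.695 and 0.864 scaled TPM in control mice, 2.35, 1.82 and 2.05 in ethanol mice, 1.34, 1.60 and 1.11 in stress mice, and 0.981, 2.07 and 1.75 in ethanol + stress mice. All ethanol values exceeded all control values, by 0.85 on the log2 scale (SE 0.30, limma adjusted p = 0.825), which was not called. The values rest on few reads, an estimated 5.97, 2.98 and 3.97 read pairs in control mice and 11.9, 7.96 and 10.9 in ethanol mice.

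The longest of the tested coding transcripts, ENSMUST00000067886.11, has 12 exons and 3602 bases and made up 19.0% of the gene. It was listed at 0, 0 and 0.801 in control mice and was detected in all 9 others, between 0.564 and 1.01. Control replicate 3, at an estimated 21.8 read pairs, lay among the exposed mice, which ranged from 18.4 to 26.1. The ethanol difference was 0.95 (limma adjusted p = 0.866) and was not called. Without control replicate 3 it was 1.41 and was called, so that 1 library sets the call.

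The 2 control libraries in which the long transcript was listed at 0 held other long coding transcripts instead. ENSMUST00000155634.7, with 14 exons, was at 0.612 in control replicate 1, at 0.0702 in ethanol + stress replicate 1 and at 0 in the other 10 libraries. ENSMUST00000129099.7, with 13 exons, was at 0.664 in control replicate 2 and at 0 in the other 11. ENSMUST00000143758.7, with 10 exons, was at 0.764 in control replicate 2 and between 0 and 0.499 elsewhere. The assignment of reads among transcripts that share most of their exons is uncertain, so a 0 for the long transcript in control mice does not mean that full-length Slc2a9 was missing there. Of the others above 0, the processed transcript ENSMUST00000144290.1 ranged from 0 to 1.08, with a log2 difference of -0.10 in ethanol mice (limma adjusted p = 0.996), and the decay transcript ENSMUST00000122970.7 stayed under 0.234 everywhere.

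A shorter coding transcript, ENSMUST00000156272.7, of 526 bases and 5 exons, was the only member transcript called in ethanol mice. It joins its exon 3 to an exon 4 far downstream in the gene, and the join is printed beside that of the long transcript to show where they part. Lower case marks the last 24 bases of exon 3 and capitals the first 24 of exon 4, on the minus strand of chromosome 5.
Slc2a9 long transcript, exon 3 to 4: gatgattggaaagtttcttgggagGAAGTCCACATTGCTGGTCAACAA
Slc2a9 short transcript, exon 3 to 4: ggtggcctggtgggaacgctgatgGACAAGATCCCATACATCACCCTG
The long transcript leaves exon 3 at base 38453102 and resumes at 38440774, a join shared with 7 other Slc2a9 transcripts. The short one leaves at 38453131 and resumes at 38391776, and no other transcript holds that join.

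The short Slc2a9 transcript was at 0.282, 0 and 0 scaled TPM in control mice, 1.62, 0.923 and 0.942 in ethanol mice, 0.251, 0 and 0.465 in stress mice, and 0, 0.405 and 0.987 in ethanol + stress mice. Ethanol mice exceeded all control and all stress mice. The ethanol difference was 1.49 (SE 0.40, 95% confidence interval 0.60 to 2.38, limma adjusted p = 0.697), and the pooled exposed difference was 0.89 (limma adjusted p = 0.672). The estimated read pairs were 4.62, 2.28 and 2.84 in ethanol mice and at most 2.51 elsewhere, against a detection floor of 3, so the fitted size rests on the pseudocount and was 2.97 with a pseudocount of 0.1, where neither call held. The ethanol call was also lost with a minimum of 1, which leaves the transcript untested, and without the 2 libraries of highest blood sums. It was lost too without control replicate 2 or 3 (1.38 each) or ethanol replicate 1 (1.30), and the pooled call without any 1 of 9 libraries, all but control replicate 1, stress replicate 3 and ethanol + stress replicate 1.

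Summed by type, the 8 coding transcripts of Slc2a9 stood at 0.894, 1.43 and 0.801 in control mice and at 2.43, 2.05 and 1.61 in ethanol mice. The 4 transcripts of other types stood at 1.61, 1.27 and 0.864 in control mice and at 2.66, 2.16 and 2.07 in ethanol mice. In both sums the ethanol mice lay above the control mice without overlap, but the coding sum did so only with the short transcript and its few read pairs. Without it, the other 7 coding transcripts stood at 0.612, 1.43 and 0.801 in control mice and at 0.815, 1.125 and 0.671 in ethanol mice, which overlapped.

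**Figure D5:**
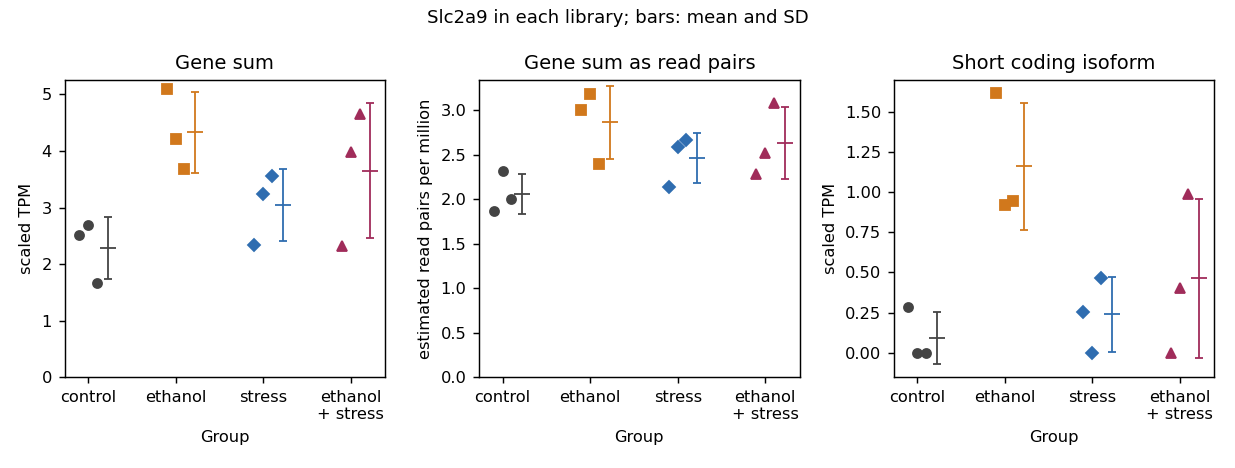
Slc2a9 in each mouse by group with mean and SD, as the gene sum in scaled TPM (left), as estimated read pairs per 1000000 (middle) and as the short coding transcript in scaled TPM (right). Ethanol mice lie above control mice in all 3 panels, with log2 differences of 0.80, 0.39 and 1.49, and in the left panel the ethanol + stress mice reach into the range of both while the stress mice (2.34 to 3.56) stay below the ethanol mice.

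Hemoglobin and related erythrocyte genes also differed between the groups. The 5 blood markers, none at 0 in any library, summed to 2022, 1603 and 1740 in control mice, 3472, 6815 and 3146 in ethanol mice, 3392, 2593 and 2813 in stress mice, and 2454, 6480 and 3977 in ethanol + stress mice. All 5 were called higher in ethanol mice and in ethanol + stress mice, and 0 of 5 in stress mice, although every stress sum also lay above every control sum. The 4 libraries with the highest sums, ethanol replicates 1 and 2 and ethanol + stress replicates 2 and 3, were also the 4 with the highest Slc2a9. The control mice had the lowest sums, with Slc2a9 at 2.51, 2.70 and 1.67. Stress replicate 1 went the other way, with a sum of 3392 and Slc2a9 among the lowest (2.34). Leaving out the 2 libraries with the highest sums, ethanol replicate 2 and ethanol + stress replicate 2, gave a Slc2a9 ethanol difference of 0.81, which was not called. The ethanol libraries that remained, at 3472 and 3146, still lay above every control library, so the part of blood RNA in the Slc2a9 values was not tested.

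Over all members, 24 of the 54 transcripts passed the filter, 7 were listed at 0 in every library, and the other 23 were too low or too rarely detected to test. In ethanol mice 1 of 24 was called and 4 had a p under 0.05, beside a background of 1.26% of 59852 transcripts called. In stress mice 0 of 24 were called in limma, with 1 at a p under 0.05, beside 0.914%, and in ethanol + stress mice 0 of 24, with 1 at a p under 0.05, beside 1.21%. The interaction called 1 of 24, beside 0.854%. Exposed against unexposed mice called 1 of 24, beside 1.47%, and separated against unseparated mice 0 of 24, with 1 at a p under 0.05, beside 0.934%. The calls were the short Slc2a9 transcript in ethanol and in exposed mice and the minor Slc2a6 transcript in the interaction. The median difference of the 24 was 0.05 in ethanol mice, as it was over all transcripts tested.

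The level of other genes that handle the same substrates was examined in the same fit. Of 18 genes of glycolysis, 18 were tested and 0 were called in any comparison in limma, the most abundant being Aldoa, Gapdh and Pkm at medians of 2522, 1707 and 1162 scaled TPM. The same was true of 5 monocarboxylate transport genes, which serve the movement of lactate and pyruvate and were led by Bsg, Slc16a1 and Emb. It held too for 14 genes of insulin signalling and GLUT4 trafficking, led by Sort1, Vamp2 and Akt1, for 5 regulators of glucose transporters, led by Hif1a, Epas1 and Txnip, and for the 1 tested of 2 sodium-glucose cotransporter genes, Slc5a1. Among 9 urate genes, 7 were tested and 0 were called. The highest of these were the urate exporter gene Abcg2, the organic anion transporter gene Slc22a8 and the xanthine oxidase gene Xdh, at medians of 23.4, 4.22 and 2.73.

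Of 6 genes that handle inositol, led by Impa1, Isyna1 and Slc5a3, 5 were tested and 1 was called, Slc5a11, a sodium-coupled myo-inositol transporter gene. Slc5a11 was at 0.330, 0.153 and 0.580 scaled TPM in control mice, 1.36, 1.22 and 0.879 in ethanol mice, 0.686, 0.261 and 0.504 in stress mice, and 0.802, 0.897 and 3.14 in ethanol + stress mice. All 6 exposed mice lay above all 6 unexposed mice, and ethanol + stress replicate 3, at 3.14, stood far above every other library. The exposed difference was 0.96 (SE 0.25, limma adjusted p = 0.760) and that of ethanol + stress mice from control 1.17 (SE 0.36, limma adjusted p = 0.791), and both were called, beside the backgrounds of 1.12% and 0.971% of all genes. Slc2a13, which carries the same substrate, did not pass the test in either comparison. All 5 blood markers were called higher in both of these comparisons, and their part in the Slc5a11 values was not tested.

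Txnip, whose product promotes the removal of GLUT1 from the cell surface, was not called and stood at 22.8, 15.3 and 19.1 scaled TPM in control mice and 23.8, 29.6 and 20.7 in ethanol + stress mice. It was also 1 of the 3 genes most like Slc2a1 over the 12 libraries, by the root mean square difference of standardised log2 levels among 14397 genes (0.501), after Zfp781 (0.424) and Mt1 (0.468). The genes most like Slc2a3 were Casc4 (0.221), Scamp1 (0.242) and Napg (0.267). Those most like Slc2a12 were Rbm47 (0.221), Trpv4 (0.350) and Wdr86 (0.369), and those most like Slc2a9 were Zmiz2 (0.428), Cryz (0.475) and Prr14 (0.475). A value of 0 would be an identical pattern, and all 12 libraries, with their shared blood and choroid plexus differences, entered each value.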

How the data were processed

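RNA-Seq libraries of 12 hippocampi (stranded total RNA, ribosomal RNA depleted, paired ends) were pseudo-aligned by the authors with kallisto and handled with sleuth, with GRCm38/mm10 as the build named in the notes and versions not given in the sources used here. The deposited signal values are TPM per transcript, scaled between libraries by the authors, so depth is not kept and read pairs were estimated from the steps of low values, of which 83.0 to 85.4% fell on a whole number within 0.15. Transcripts were matched to GENCODE M21 by identifier (113580 of 115270), and the unmatched held 0.518 to 0.58% of values. Genes (18434) and transcripts (59852) at 0.1 or more in at least 6 of 12 libraries were tested with limma 3.58.1 (moderated, trend, two-sided) on log2(value + 0.5) in a model of all 4 groups, with Benjamini-Hochberg adjustment over all tested. Calls used an unadjusted p under 0.01, as the study's gene lists did. The fit was tested on simulated data. The members and gene lists were chosen with earlier results of these data known. Named were all 9 members. Transcripts were named for the largest share of a gene, for the smallest p or for a call, and for Slc2a9 all above 0. In lists of related genes, called genes and up to 3 of the highest were named. In marker lists called genes were named, except that the 5 blood markers were counted. The 3 genes nearest to 4 members were named, by the root mean square difference of standardised levels (mean of 1 or more). In each list the rest were counted. Read pairs per library total entered the same limma model. Alternatives were another pseudocount, filter, scaling, trend and a replicate block, and each library left out. 1 exon join of Slc2a1 is not reported here.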

Additional observations from a re-analysis of the deposited data

Results flagged for a closer look

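The minor coding transcript of Slc2a6, ENSMUST00000102890.10, stood out because the effect of ethanol differed between unseparated and separated mice in the test of the interaction itself (2.18 on the log2 scale, SE 0.69). It did not hold up over all transcripts (limma adjusted p = 0.99997). Ethanol mice were at 0, 0 and 0.408 scaled TPM against 1.67, 0.762 and 0.566 in control mice, and ethanol + stress mice at 2.29, 1.13 and 0.493 against 0.486, 0.759 and 0 in stress mice. It lost the call with a minimum of 1, with no filter, with a common total, with the length trend removed, without the 2 libraries of highest blood sums, and without any 1 of 8 of the 12 libraries. It made up 3.87% of the gene.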

How the results depend on the processing

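No called difference changed direction under any alternative run, while some that were not called changed sign, such as Slc2a3 in ethanol mice (-0.18, and 0.04 without ethanol replicate 2). The single gene-sum call in ethanol mice, Slc2a9, went to 0 with no filter on low values, with the replicate number as a block, with estimated read pairs over the library total and without the 2 libraries of highest blood sums, the last 2 chosen after seeing the data. Libraries of the same number in different groups had correlations of deviations of -0.173 to 0.164 (median -0.01, 18 pairs). Pairs of different number had -0.333 to 0.336 (median 0.025, 36 pairs). With 3 mice per group such values cannot decide whether a number marks a shared litter. The labels state no pairing, so the replicate block is given here only. Among transcripts, the ethanol count of 1 became 0 with a pseudocount of 0.1, a minimum of 1 or without the 2 high-blood libraries, 2 without the variance trend and 3 with no filter, which also gave 1 in stress and 1 in ethanol + stress mice. The interaction count of 1 became 0 with a minimum of 1, a common total, the length trend removed or without the high-blood libraries. The exposed count of 1 became 0 under these, with a pseudocount of 0.1, median-of-ratios scaling, no variance trend and the replicate block. With no filter the interaction and exposed counts were again 1, but for other transcripts, ENSMUST00000142500.7 of Slc2a4 and ENSMUST00000166135.7 of Slc2a3.

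With single libraries left out, the gene-sum count ranged from 0 to 1 in ethanol, ethanol + stress and exposed mice. Slc2a9 in ethanol mice lost its call without control replicate 1 or 3, ethanol replicate 1 or 2, stress replicate 2 or ethanol + stress replicate 2, and was called in ethanol + stress mice (0.81) and exposed mice (0.63) without ethanol + stress replicate 1. The transcript count ranged from 0 to 1 in the ethanol, stress, ethanol + stress, exposed and separated comparisons and from 0 to 2 in the interaction. The cause of these changes was not tested. Members under 50 estimated read pairs, Slc2a4, Slc2a9 and Slc2a10, are limited by depth.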
